A study of Mus musculus with 8 samples.

Results

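The 8 genes described here control the sterol regulatory element-binding proteins (SREBPs) and carry out or govern a part of cholesterol transport. They were Srebf1, Srebf2, Scap, Insig1, Insig2, Stard4, Abca1 and Nr1h2, chosen by gene symbol in the array annotation together with every probe that carries such a symbol. They were 8 of the 21394 gene symbols on the array, and 15 of its 41174 probes. A probe was tested if its signal passed the detection level, the median of the negative control spots plus 2.6 robust SD, in either channel of 2 or more arrays. By that rule 14 of the 15 probes and 7 of the 8 genes were tested among 13411 genes, and Abca1 was not.

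SREBPs are transcription factors made as membrane proteins of the endoplasmic reticulum. When sterols are scarce, the escort protein Scap takes them to the Golgi, where proteases release the part that enters the nucleus and turns on genes of sterol and fatty acid synthesis. When sterols are plentiful, the Insig proteins hold Scap back, and oxysterols activate the liver X receptors (LXRs), which promote the export of cholesterol.

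LLC1 cells, a Lewis lung carcinoma line from a lung cancer of a C57BL/6 mouse, were grown in culture and exposed to X-rays, and RNA was taken 4 h after treatment. Irradiated cells had received 2 Gy at once (3 arrays), 10 Gy at once (2 arrays) or 10 Gy as 5 fractions of 2 Gy (3 arrays, the regimen named 5x2 Gy), and each array set irradiated LLC1 cells (Cy5) against untreated LLC1 cells (Cy3). Per the labels each regimen had 3 biological replicates, of which 1 of the 10 Gy set is not used here. No source used here gives the time between fractions. All groups are 1 cell line, the dyes were not exchanged, and a dye effect particular to a gene is therefore part of each comparison with untreated cells. Values below are log2 ratios of irradiated over untreated cells, so a negative ratio means less RNA in irradiated cells. The arrays measured RNA of whole cultures, in which fewer cells of a kind and less RNA per cell cannot be told apart.

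Of the 2 slides, the first carried every 2 Gy array plus replicate 1 of 10 Gy, and the second carried every 5x2 Gy array plus replicate 2 of 10 Gy. Across genes, which are not independent replicates, the 10 Gy pair had a correlation of log2 ratios of r = 0.427, while replicate 2 of that pair reached r = 0.748 to 0.854 with the fractionated arrays of its slide. Their spread over all genes was 0.69 (SD) on 10 Gy replicate 1, against 0.33 to 0.46 on the other 7 arrays. Between 34.7% and 47.5% of the probes were above the detection level in the irradiated channel and between 44.8% and 49.1% in the untreated channel. In untreated cells all 6 mesenchymal markers and 3 of 6 epithelial markers (the keratins Krt8, Krt18 and Krt19) were above the detection level on every array, while 0 of 5 lung epithelium markers and 0 of 4 endothelial markers were. Of 6 immune markers, Cd3e and Cd68 passed. The number of arrays limits the precision, and p-values measure the spread between arrays labelled as biological replicates.

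After 10 Gy, 5 of the 7 genes tested fell and 1 rose. Those that fell were Srebf2 (3.02-fold lower), Stard4 (2.32-fold), Insig1 (2.10-fold), Srebf1 (2.06-fold) and Insig2 (1.64-fold), and Nr1h2 rose 1.57-fold. After 5x2 Gy, Stard4 (2.04-fold lower), Insig1 (1.70-fold) and Srebf2 (1.67-fold) fell, and Nr1h2 rose 1.80-fold. After 2 Gy, Insig1 was 1.27-fold lower and Nr1h2 1.31-fold higher, and the other 5 genes tested did not pass. A gene was called at a Benjamini-Hochberg adjusted p below 0.05 over the 13411 genes, from limma's moderated test with 1 mean per regimen. Each SE below is that of this moderated fit, and n counts the arrays of the regimen. Such an SE draws on the spread of all 8 arrays and of the other genes or probes. It can therefore be smaller than the arrays of the regimen alone would give. Read against all genes, 28.2% were called after 10 Gy, 12.4% higher and 15.8% lower. After 5x2 Gy 41% were called, 17.6% higher and 23.4% lower, and after 2 Gy 16.9%, 8.99% higher and 7.93% lower. The share of these genes called after 2 Gy, 2 of 7, and after 5x2 Gy, 4 of 7, thus stood nearer to the share of all genes than the 6 of 7 after 10 Gy. The median log2 difference of the 7 genes was -0.13 after 2 Gy, -1.05 after 10 Gy and -0.33 after 5x2 Gy, against 0, -0.06 and -0.02 over all genes. With slide as a random block, 2 of the 7 genes, Stard4 and Nr1h2, were called after 5x2 Gy, against 6.09% of all genes. After 2 Gy that block called 0 of the 7 and 0.157% of all genes. With the 10 Gy arrays fitted alone Srebf2 was the only gene of the 7 called after 10 Gy, against 2.24% of all genes.

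**Figure D1:**
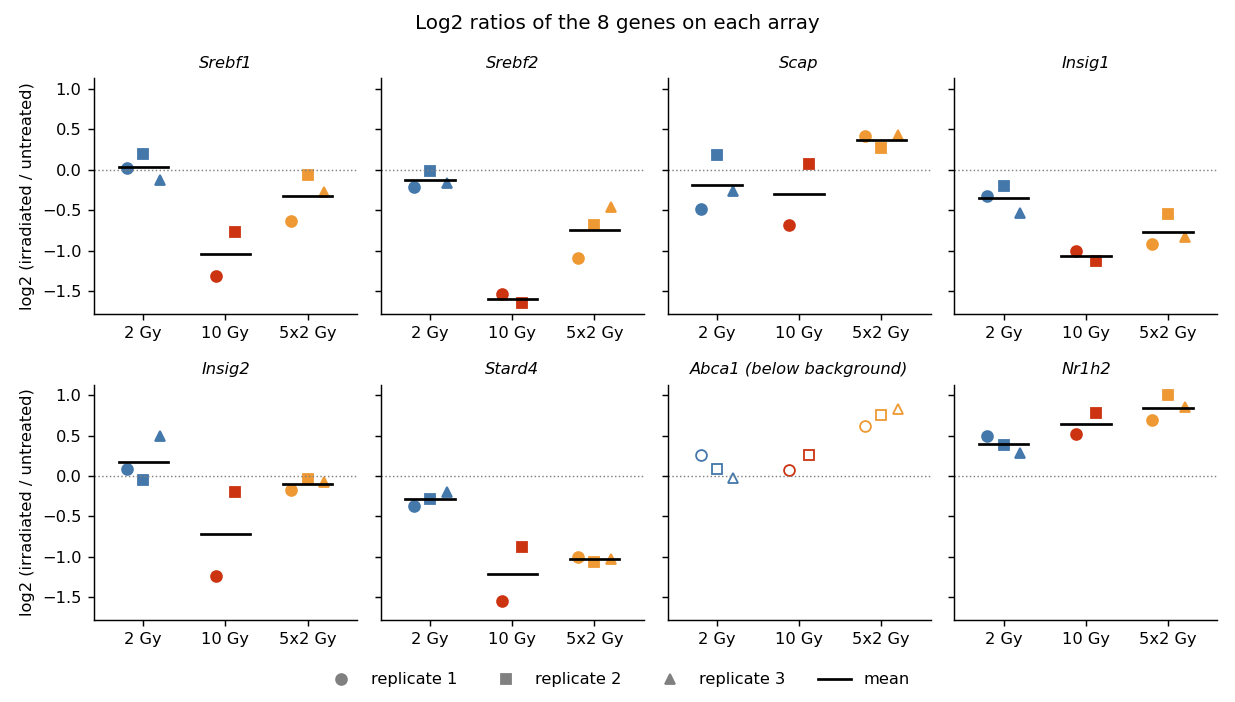
Log2 ratio of irradiated over untreated cells (y axis) on each array for the brightest probe of each of the 8 genes, by regimen (x axis, 2 Gy, 10 Gy and 5x2 Gy); symbols mark replicates and lines the mean. The 10 Gy arrays of Srebf2 sit at -1.54 and -1.65, Nr1h2 is above 0 on all 8 arrays, and the open symbols of Abca1 are signals below the detection level.

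Srebf2 encodes SREBP-2, the form known chiefly for turning on cholesterol synthesis, and its own gene is a known SREBP target. The 300 bases around its start site, 250 before it and 50 after, are shown because Srebf2 fell the most of the 7 genes after 10 Gy. They lie at chr15:82147019-82147318 on the plus strand (RefSeq, GRCm38.p6). Capitals mark ATCACCCCA, the first 9 of the 10 letters of the sterol regulatory element (the last is C), with its first base at -163, and ATTGG, the reverse complement of the CCAAT box, with its first base at -135.
Srebf2: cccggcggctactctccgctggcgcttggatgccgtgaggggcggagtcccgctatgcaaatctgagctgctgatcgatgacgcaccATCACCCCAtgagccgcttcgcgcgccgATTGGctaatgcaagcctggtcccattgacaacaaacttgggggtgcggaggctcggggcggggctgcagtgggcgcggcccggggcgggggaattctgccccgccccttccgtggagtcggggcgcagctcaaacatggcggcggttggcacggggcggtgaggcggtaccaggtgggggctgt

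The brightest Srebf2 probe (A_52_P473344) had log2 ratios of -0.21, -0.01 and -0.16 on the 2 Gy arrays, of -1.54 and -1.65 on the 10 Gy arrays, and of -1.09, -0.68 and -0.46 on the 5x2 Gy arrays. The 3 regimens did not overlap, with 10 Gy lowest and 2 Gy nearest to 0. The mean was -1.59 ± 0.15 (SE, n = 2) after 10 Gy (adjusted p = 0.00032) and -0.74 ± 0.12 (SE, n = 3) after 5x2 Gy (adjusted p = 0.0015). After 2 Gy it was -0.13 ± 0.12 (SE, n = 3) and was not called (adjusted p = 0.50). Of the 13411 genes, 0.261% had a lower mean than Srebf2 after 10 Gy, and 3.47% after 5x2 Gy.

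Srebf2 had 3 further probes, and they did not give 1 size of change. After 10 Gy the second probe (A_51_P377508) was at -1.13 and -0.50 and the third (A_52_P665742) at -0.60 and -0.91, and both were called lower, at -0.81 ± 0.18 (SE, n = 2, adjusted p = 0.011) and -0.75 ± 0.11 (SE, n = 2, adjusted p = 0.0018). These p-values were adjusted over all 21685 probes tested, of which 26.8% were called after 10 Gy and 41.9% after 5x2 Gy. After 5x2 Gy the third probe was at -1.02, -0.88 and -0.92 and was called (-0.94 ± 0.09, SE, n = 3, adjusted p = 2e-04), while the second was at -0.31, 0.36 and 0.08 and was not (0.05 ± 0.15, SE, n = 3, adjusted p = 0.83). The second probe thus lay on both sides of 0 where the first and the third were negative on every array. The fourth (A_52_P302001) passed the detection level in the irradiated channel on 2 of 8 arrays and in the untreated channel on 4, and ranged from -0.11 to 0.25. With the mean over its probes in place of the brightest, Srebf2 stood at -0.74 after 10 Gy (adjusted p = 0.0016) and at -0.36 after 5x2 Gy (adjusted p = 0.010). That mean includes the fourth probe, which was below the detection level in both channels on both 10 Gy arrays (0.18 and 0.19). The smaller size is therefore in part that of a signal not told apart from background.

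Srebf1 encodes SREBP-1a and SREBP-1c, forms known for driving fatty acid synthesis, and SREBP-1c is a known LXR target. Its single probe (A_51_P401921) was at 0.02, 0.20 and -0.12 after 2 Gy, at -1.32 and -0.77 after 10 Gy and at -0.64, -0.06 and -0.28 after 5x2 Gy. Both 10 Gy arrays were below all other arrays, and the 2 Gy and 5x2 Gy arrays overlapped. The mean fell to -1.05 ± 0.17 (SE, n = 2) after 10 Gy (adjusted p = 0.0022). After 5x2 Gy it was -0.33 ± 0.14 (SE, n = 3), negative on 3 of 3 arrays and not called (adjusted p = 0.083), and it passed with either 10 Gy array left out (adjusted p = 0.020) and with a fixed slide block (-0.60, adjusted p = 0.016), but not with a random one (-0.52, adjusted p = 0.27). After 2 Gy it was 0.03 ± 0.14 (SE, n = 3, adjusted p = 0.89). With arrays centred on their medians in place of loess, which moved the median of all genes after 2 Gy to 0.13, the 2 Gy value was 0.43 (adjusted p = 0.031). Whether the probe reads the transcripts of both forms was not tested.

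**Figure D2:**
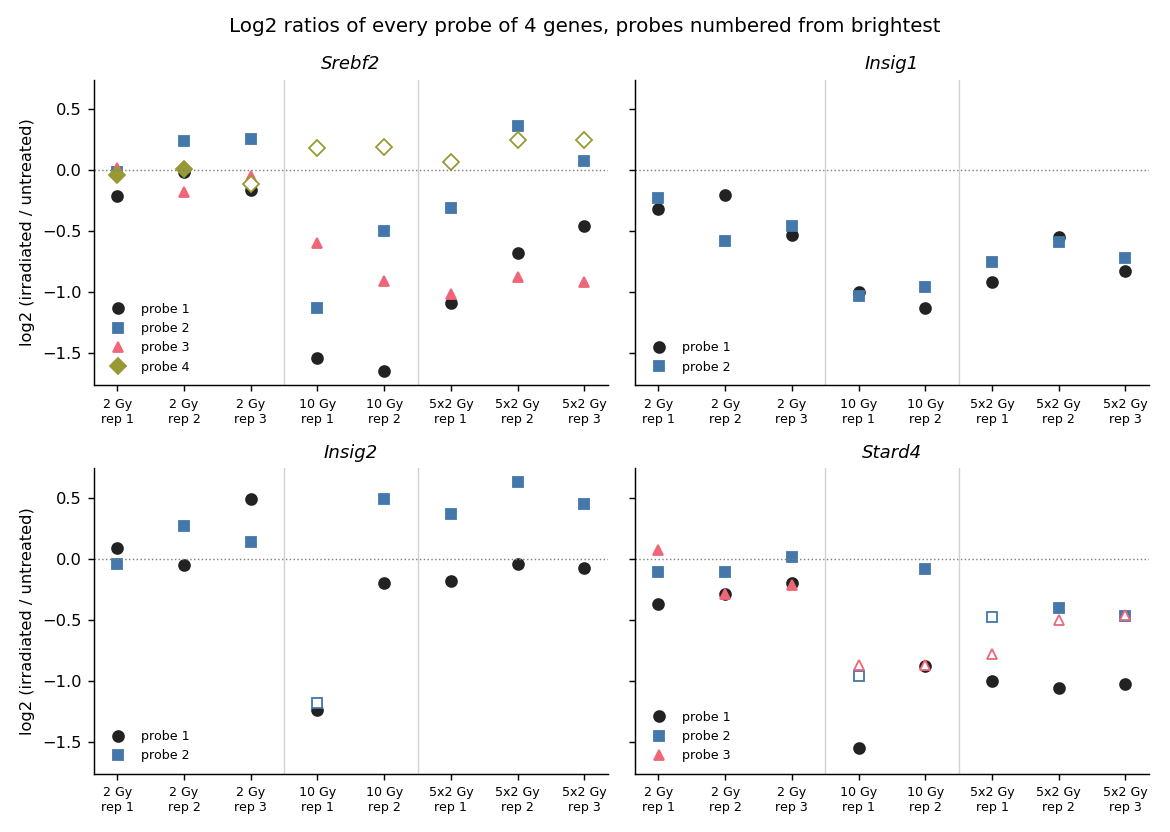
Log2 ratio of irradiated over untreated cells (y axis) of every probe of Srebf2, Insig1, Insig2 and Stard4 on each array (x axis), with probes numbered from the brightest; open symbols are below the detection level in the irradiated channel. The pair of Insig1 probes lies close together on most arrays. On 10 Gy replicate 2 the Srebf2 probes above the detection level spread from -1.65 to -0.50, and the fourth, below it, was at 0.19.

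Scap is the escort that carries SREBPs from the endoplasmic reticulum to the Golgi. Its probe was at -0.49, 0.18 and -0.26 after 2 Gy, at -0.68 and 0.07 after 10 Gy and at 0.42, 0.27 and 0.43 after 5x2 Gy. The 5x2 Gy arrays were all positive and above the others, and the 2 Gy and 10 Gy arrays lay on both sides of 0. Scap passed in no regimen: -0.19 ± 0.16 (SE, n = 3, adjusted p = 0.43) after 2 Gy, -0.30 ± 0.19 (SE, n = 2, adjusted p = 0.26) after 10 Gy and 0.38 ± 0.16 (SE, n = 3, adjusted p = 0.082) after 5x2 Gy. Centred on array medians, the values were 0.21 after 2 Gy and 0.09 after 10 Gy, with the opposite sign, and 0.47 after 5x2 Gy (adjusted p = 0.019). Without 10 Gy replicate 2 the 10 Gy value was -0.68 (adjusted p = 0.013), and with either 10 Gy array left out the 5x2 Gy value passed at 0.38 (adjusted p = 0.012). With slide in the fit the 5x2 Gy value was 0 with a fixed slide block (adjusted p = 1) and 0.11 with a random one (adjusted p = 0.85).

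Insig1 encodes a membrane protein of the endoplasmic reticulum that holds Scap back when sterols are plentiful, and it is a known SREBP target. Its 300 bases around the start site are shown because it was the only one of the 7 genes called lower in all 3 regimens. They lie at chr5:28071162-28071461 on the plus strand (RefSeq, GRCm38.p6). Capitals mark ATTGG, the reverse complement of CCAAT, with its first base at -216, and the E-box CACGTG with its first base at -101.
Insig1: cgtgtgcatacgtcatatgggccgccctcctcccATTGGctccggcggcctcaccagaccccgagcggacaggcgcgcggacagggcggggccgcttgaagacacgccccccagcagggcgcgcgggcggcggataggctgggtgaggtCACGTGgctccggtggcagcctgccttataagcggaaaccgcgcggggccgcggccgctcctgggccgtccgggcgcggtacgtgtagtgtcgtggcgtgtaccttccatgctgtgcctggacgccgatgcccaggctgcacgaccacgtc

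The brighter Insig1 probe (A_51_P290207) was at -0.32, -0.20 and -0.53 after 2 Gy, at -1.0 and -1.13 after 10 Gy and at -0.92, -0.55 and -0.83 after 5x2 Gy. All 8 arrays were negative, and the 3 regimens did not overlap, although -0.53 after 2 Gy and -0.55 after 5x2 Gy nearly met. The mean was -0.35 ± 0.10 (SE, n = 3) after 2 Gy (adjusted p = 0.049), -1.07 ± 0.13 (SE, n = 2) after 10 Gy (adjusted p = 0.00067) and -0.77 ± 0.10 (SE, n = 3) after 5x2 Gy (adjusted p = 0.00073). The dimmer probe (A_52_P393392) was at -0.23, -0.58 and -0.46, at -1.03 and -0.96, and at -0.75, -0.59 and -0.72 in the same order. It was called lower in each regimen too, at -0.42 ± 0.09 after 2 Gy (SE, n = 3, adjusted p = 0.016), where 16.1% of all probes were called. For the brighter probe the 2 Gy call was lost without any of the 2 Gy arrays (adjusted p = 0.11 to 0.29) or any of the 5x2 Gy arrays (adjusted p = 0.058 to 0.087), and with arrays centred on their medians (-0.18, adjusted p = 0.23). It was also lost without background correction, with the series matrix values, with a random slide block and with the replicate number as a block.

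Insig2, the second Insig protein, acts on Scap in the same way. Its brighter probe (A_51_P439452) was at 0.09, -0.05 and 0.49 after 2 Gy, at -1.24 and -0.20 after 10 Gy and at -0.18, -0.04 and -0.07 after 5x2 Gy. The low value came from 10 Gy replicate 1 alone, and the other 10 Gy array lay next to the 5x2 Gy arrays of its slide. The 10 Gy mean was called at -0.72 ± 0.22 (SE, n = 2, adjusted p = 0.034), though the 10 Gy arrays themselves had an SD of 0.74. Without 10 Gy replicate 1 it was -0.20. The dimmer probe (A_52_P113250) was at -1.18 on 10 Gy replicate 1, below the detection level in the irradiated channel there, and at 0.49 on replicate 2. It was not called (-0.35 ± 0.29, SE, n = 2, adjusted p = 0.40), and the SD of these arrays was 1.18. After 5x2 Gy the dimmer probe was at 0.37, 0.63 and 0.45 and the brighter was negative on the same arrays, and neither was called. After 2 Gy the brighter probe was at 0.18 ± 0.18 (SE, n = 3, adjusted p = 0.52) and after 5x2 Gy at -0.10 ± 0.18 (SE, n = 3, adjusted p = 0.68). With a fixed slide block it was called in both, at 0.70 after 2 Gy (adjusted p = 0.0069) and -0.62 after 5x2 Gy (adjusted p = 0.0095), and with a random one in neither (0.54, adjusted p = 0.40, and -0.46, adjusted p = 0.36). Array weights called it after 2 Gy too (0.35, adjusted p = 0.0049).

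Stard4 encodes a soluble carrier that moves cholesterol between membranes, and it is a known SREBP-2 target. Its brightest probe (A_52_P384574) was at -0.37, -0.29 and -0.20 after 2 Gy, at -1.55 and -0.88 after 10 Gy and at -1.0, -1.06 and -1.03 after 5x2 Gy. All 8 arrays were negative, the 2 Gy arrays were the nearest to 0, and the 5x2 Gy arrays lay between the 10 Gy pair. The mean was -1.22 ± 0.15 (SE, n = 2) after 10 Gy (adjusted p = 0.00071) and -1.03 ± 0.12 (SE, n = 3) after 5x2 Gy (adjusted p = 0.00041). After 2 Gy it was -0.29 ± 0.12 (SE, n = 3, adjusted p = 0.13), and with either 10 Gy array left out it was called at the same size (adjusted p = 0.0085). With slide in the fit the 2 Gy value was near 0, at 0.05 with a fixed slide block (adjusted p = 0.77) and -0.05 with a random one (adjusted p = 0.93), and the mean over probes gave -0.17 (adjusted p = 0.27).

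The Stard4 signals were low. After 5x2 Gy the irradiated signals of the brightest probe were 302, 302 and 267, against detection levels of 299, 281 and 236, and the untreated signals were 876, 964 and 878. The irradiated side therefore lay just above what the arrays could tell from background. The second probe (A_51_P105445) was at -0.96 and -0.08 after 10 Gy (-0.52 ± 0.17, SE, n = 2, adjusted p = 0.051) and at -0.48, -0.40 and -0.47 after 5x2 Gy, where it was called (-0.45 ± 0.14, SE, n = 3, adjusted p = 0.028). The third probe (A_52_P561205) was not above the detection level on any irradiated 10 Gy or 5x2 Gy array while the untreated channel was on all 8. Its normalized irradiated signal was then raised to the lowest normalized value of any probe above the detection level on that array. So raised, it was 1.38-fold below the untreated signal after 10 Gy, an approximate bound. After 5x2 Gy the raised mean (log2 8.55) was no lower than the untreated mean (log2 8.45), so no bound on a fall can be given. The fit over probes, which took the signals below the detection level at their measured values, gave -0.87 after 10 Gy (adjusted p = 0.0014) and -0.58 after 5x2 Gy (adjusted p = 0.0024).

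**Figure D3:**
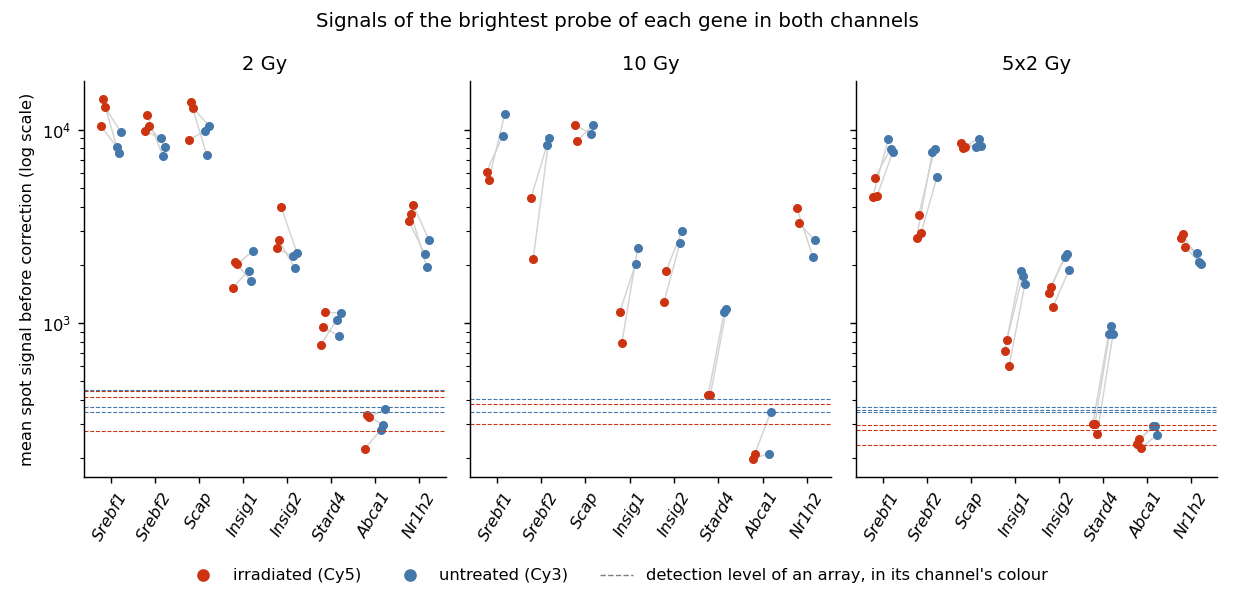
Mean spot signal before correction (y axis, log scale) of the brightest probe of each gene (x axis), irradiated cells left of untreated cells and joined by a line per array, in panels for 2 Gy, 10 Gy and 5x2 Gy; dashed lines are the detection levels. Abca1 lies below the detection levels of its arrays in both channels, and the irradiated Stard4 signals after 5x2 Gy, 267 to 302, lie just above theirs.

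Abca1 is the membrane pump that exports cholesterol to lipid-poor apolipoproteins, and a classic LXR target. Its single probe (A_52_P665675) was above the detection level on 0 of 8 arrays in either channel. Irradiated signals were 225, 336 and 326 after 2 Gy, 199 and 211 after 10 Gy and 239, 251 and 227 after 5x2 Gy, against untreated signals of 280, 297 and 360, of 212 and 347, and of 296, 294 and 265. The normalized ratios, 0.26, 0.09 and -0.02, then 0.07 and 0.26, then 0.62, 0.76 and 0.83, are ratios of signals not told apart from background, and no level or change was read from them. The positive ratios after 5x2 Gy stand beside irradiated signals that were the lower ones on each of those arrays, and loess normalization sets the ratio of a spot against those of spots of like brightness.

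Nr1h2 encodes LXR beta, the receptor of the LXR pair that most tissues express. Its probe (A_51_P400203) was at 0.50, 0.38 and 0.29 after 2 Gy, at 0.52 and 0.78 after 10 Gy and at 0.69, 1.00 and 0.85 after 5x2 Gy. It was positive on all 8 arrays and was the only one of the 7 genes called higher. The mean rose to 0.39 ± 0.10 (SE, n = 3) after 2 Gy (adjusted p = 0.026), to 0.65 ± 0.12 (SE, n = 2) after 10 Gy (adjusted p = 0.0045) and to 0.85 ± 0.10 (SE, n = 3) after 5x2 Gy (adjusted p = 0.00041). The 2 Gy call was lost without any of the 2 Gy arrays (0.34 to 0.44, adjusted p = 0.11 to 0.13) and without 5x2 Gy replicate 3 (adjusted p = 0.056). It was also lost with flagged spots left out, with a random slide block and with the replicate number as a block.

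Letters of known elements were looked for on both strands of the 300-base windows that RefSeq annotation gives for 7 of the 8 genes, 12 windows in all. The sterol element in its 10 letters, ATCACCCCA followed by C, was in none of them and in 0.0913% of the 32851 windows of all genes. Its first 9 letters, a form tried after the sequences were seen, were in the Srebf2 window and in 0.28% of all. The E-box CACGTG was in windows of Insig1, Scap and Abca1 (7.15% of all), and CCAAT in windows of Srebf1, Srebf2, Insig1 and Insig2 (37.4% of all). Of these, Srebf1, Srebf2, Insig1 and Insig2 were called lower after 10 Gy, and only Srebf2 and Insig1 after 5x2 Gy. Scap, whose 2 windows overlap and hold the same E-box, was called in no regimen, and Stard4, which fell, has no window. The shares are of single windows, whereas Srebf1 and Insig2 had 3 windows each and Scap 2, so they are not shares of genes. No link between a match and a call was tested. A match is a run of letters, not a site shown to be bound.

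The letters TGACC and TAACC with any 5 letters between them, an LXR element form also tried after the sequences were seen, were in 0.0487% of all windows and in those of Srebf1 and Abca1. They are shown in capitals because these genes are known LXR targets while the receptor gene Nr1h2 rose. The Srebf1 stretch is chr11:60210609-60210683 on the minus strand, with the match starting at -182, and the Abca1 stretch is chr4:53159918-53159992 on the minus strand, with the match starting at -67 (RefSeq, GRCm38.p6). Of these genes Srebf1 fell after 10 Gy, and Abca1 was not above background.
Srebf1: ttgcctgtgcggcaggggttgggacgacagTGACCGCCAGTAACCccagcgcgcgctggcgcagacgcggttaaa
Abca1: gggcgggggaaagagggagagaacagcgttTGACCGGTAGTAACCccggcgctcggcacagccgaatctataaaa

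Between the single doses, 3 of the 7 genes were called lower after 10 Gy than after 2 Gy, where 2.56% of all genes were called, 1.04% higher and 1.52% lower. They were Srebf2 at a log2 difference of -1.47 ± 0.19 (SE, adjusted p = 0.022), Srebf1 at -1.08 ± 0.22 (SE, adjusted p = 0.041) and Stard4 at -0.93 ± 0.19 (SE, adjusted p = 0.042), with 2 arrays of 10 Gy against 3 of 2 Gy. In each of them both 10 Gy arrays lay below the 3 arrays of 2 Gy. Insig1 (-0.72 ± 0.17, SE, adjusted p = 0.054) and Insig2 (-0.89 ± 0.28, SE, adjusted p = 0.11) did not overlap either and were not called. The difference was -0.11 for Scap (95% interval -0.67 to 0.44) and 0.26 for Nr1h2 (95% interval -0.09 to 0.61), and the Nr1h2 arrays did not overlap either. The share of all genes without overlap was not counted, so overlap describes these arrays only. Over all probes tested, of which 2.23% were called, the third Srebf2 probe was called too (-0.69 ± 0.15, SE, adjusted p = 0.048) and the second was not (-0.97 ± 0.24, SE, adjusted p = 0.066). Within slide 1, with 10 Gy replicate 1 against the 3 arrays of 2 Gy, the differences were -1.41 for Srebf2, -1.35 for Srebf1, -1.26 for Stard4, -1.42 for Insig2 and -0.66 for Insig1. The counts moved with those of all genes when an array was left out. Without 2 Gy replicate 1, 2 or 3, 0 of the 7 and 0 of all genes were called. Without a 5x2 Gy array, 0 or 1 of the 7 was called (1 without replicate 1), where 4 or 5 of all genes were. With either 10 Gy array left out, 1 array of 10 Gy remains, and the calls of those fits are not given. Without replicate 1 the array that remains lies on slide 2, apart from the 2 Gy arrays, so regimen and slide cannot be told apart.

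Between 5x2 Gy and 2 Gy, 0 of the 7 genes were called, against 1.3% of all genes, 0.38% higher and 0.925% lower (3436 of the 13411 at an unadjusted p below 0.05). The differences nearest to the threshold were -0.74 ± 0.17 for Stard4 (SE, adjusted p = 0.061), -0.62 ± 0.17 for Srebf2 (SE, adjusted p = 0.077) and 0.45 ± 0.14 for Nr1h2 (SE, adjusted p = 0.098), with 3 arrays each and no overlap between the regimens. Insig1 was at -0.42 (95% interval -0.75 to -0.09) and Scap at 0.57 (95% interval 0.07 to 1.06), likewise without overlap. Srebf1 was at -0.36 (95% interval -0.80 to 0.08) and Insig2 at -0.28 (95% interval -0.83 to 0.28), with overlap. Here too the share of all genes without overlap was not counted. Over all probes tested, of which 1.94% were called, the third Srebf2 probe passed at -0.88 ± 0.13 (SE, adjusted p = 0.034). No slide held both regimens, so there is no value within a slide, and a slide term rests on the 10 Gy pair, which spans the slides. With a fixed slide block Stard4 (-1.42, adjusted p = 0.0013) and Insig2 (-1.32, adjusted p = 0.0090) were called, and with a random one Stard4 was (-1.21, adjusted p = 0.033). Without 10 Gy replicate 1 or without 10 Gy replicate 2, 5 of the 7 genes were called, where 29.9% of all genes were.

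At the same total dose, 0 of the 7 genes were called between 5x2 Gy and 10 Gy, and 0% of all genes (2241 of the 13411 at an unadjusted p below 0.05). Srebf2 differed by 0.85 (95% interval 0.43 to 1.27), Srebf1 by 0.72 (95% interval 0.23 to 1.21), Scap by 0.68 (95% interval 0.12 to 1.24) and Insig2 by 0.62 (95% interval 0.00 to 1.24), each less negative or more positive after 5x2 Gy. Insig1 (0.30, 95% interval -0.07 to 0.67), Stard4 (0.18, 95% interval -0.25 to 0.61) and Nr1h2 (0.19, 95% interval -0.16 to 0.55) had intervals that held 0. Within slide 2, with the 3 arrays of 5x2 Gy against 10 Gy replicate 2, the differences were 0.91 for Srebf2, 0.45 for Srebf1, 0.36 for Insig1, 0.31 for Scap, 0.10 for Insig2, 0.06 for Nr1h2 and -0.15 for Stard4. Without 10 Gy replicate 2, the 10 Gy array left lies on slide 1 and every 5x2 Gy array on slide 2. Regimen and slide then cannot be told apart, and the calls of that fit are not given. Of a test for any difference among the 3 regimens, Srebf2 alone passed (adjusted p = 0.041), where 1.48% of all genes did, but 0 of the 7 did with any of the 2 Gy or 5x2 Gy arrays left out, as did 0 of all genes. With either 10 Gy array left out, 1 array of that regimen remains, and the passes of this test are not given.

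**Figure D4:**
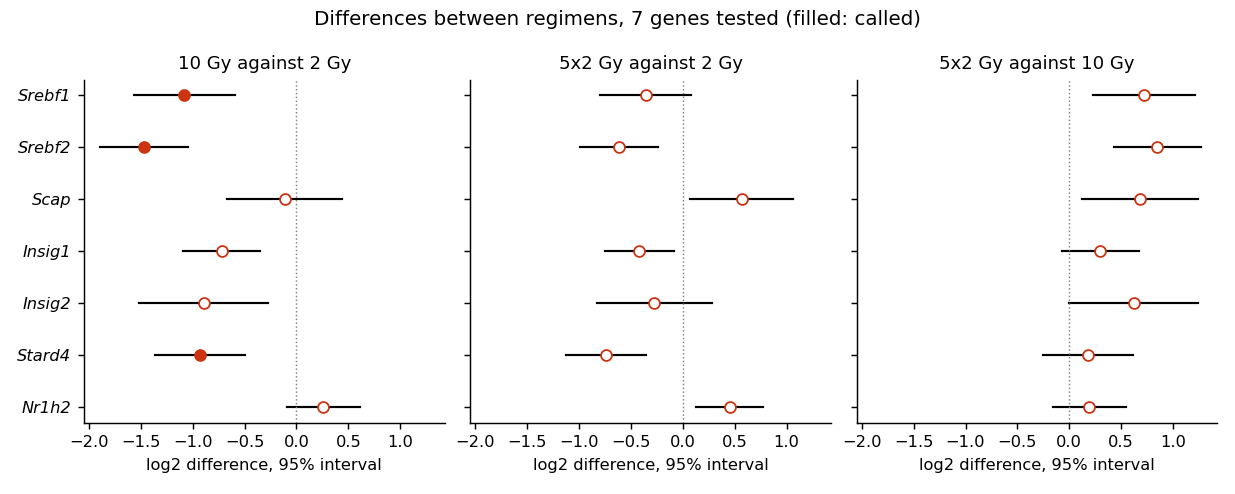
Log2 difference between regimens (x axis) with its 95% interval for the 7 genes tested (y axis), in panels for 10 Gy against 2 Gy, 5x2 Gy against 2 Gy and 5x2 Gy against 10 Gy; filled points were called. Only Srebf1, Srebf2 and Stard4 in the first panel are filled, at -1.08, -1.47 and -0.93.

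The order of the genes differed between regimens. After 2 Gy it ran from Insig1 (-0.35) and Stard4 (-0.29) through Scap (-0.19), Srebf2 (-0.13), Srebf1 (0.03) and Insig2 (0.18) to Nr1h2 (0.39), and the array ranges of each pair of neighbours overlapped. After 10 Gy the order was Srebf2 (-1.59), Stard4 (-1.22), Insig1 (-1.07), Srebf1 (-1.05), Insig2 (-0.72), Scap (-0.30) and Nr1h2 (0.65). There too neighbours overlapped in range, except Scap and Nr1h2. After 5x2 Gy it was Stard4 (-1.03), Insig1 (-0.77), Srebf2 (-0.74), Srebf1 (-0.33), Insig2 (-0.10), Scap (0.38) and Nr1h2 (0.85), and Stard4 was apart from Insig1, Insig2 from Scap and Scap from Nr1h2. These are ranks of log2 differences, not of RNA levels.

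The genes that act with these 8 were taken from 6 lists written for the pathway, and each list's share called is read against the 16.9% of all genes called after 2 Gy, 28.2% after 10 Gy and 41% after 5x2 Gy. Of 11 enzymes from acetyl-CoA to lanosterol, 10 fell and 0 rose after 10 Gy (median -1.20), 8 fell and 0 rose after 5x2 Gy (median -0.67), and 2 fell and 2 rose after 2 Gy (median -0.20). The shares called were 36.4% after 2 Gy, 90.9% after 10 Gy and 72.7% after 5x2 Gy, each above that of all genes. Fdps, farnesyl diphosphate synthase, was at -2.04 ± 0.14 after 10 Gy (SE, n = 2, adjusted p = 0.00016) and at -1.51 ± 0.12 after 5x2 Gy (SE, n = 3, adjusted p = 0.00012). The members called after 2 Gy went both ways: Mvk, mevalonate kinase, was at 0.72 ± 0.10 (SE, n = 3, adjusted p = 0.0025) and Mvd, the mevalonate diphosphate decarboxylase, at 0.49 ± 0.10 (SE, n = 3, adjusted p = 0.010). Between 10 Gy and 2 Gy, 7 of the 11 were called lower, among them Pmvk, phosphomevalonate kinase, at -1.13 ± 0.16 (SE, adjusted p = 0.022).

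Of 10 enzymes from lanosterol to cholesterol, 8 fell and 0 rose after 10 Gy (median -1.12), 7 fell and 1 rose after 5x2 Gy (median -0.89), and 2 fell and 1 rose after 2 Gy (median -0.20), shares of 30% after 2 Gy, 80% after 10 Gy and 80% after 5x2 Gy. Of 16 fatty acid synthesis genes, 9 fell after 10 Gy (median -0.51), 5 after 5x2 Gy (median -0.23) and 1 after 2 Gy (median -0.09), and 0 rose. Of these shares the 56.2% after 10 Gy was above that of all genes, and the 31.2% after 5x2 Gy and 6.25% after 2 Gy were below it. Scd2, a stearoyl-CoA desaturase, was at -2.40 ± 0.18 after 10 Gy (SE, n = 2, adjusted p = 0.00019) and at -0.94 ± 0.14 after 5x2 Gy (SE, n = 3, adjusted p = 0.0012). Acaca, acetyl-CoA carboxylase, was lower in each regimen, at -0.36 ± 0.09 after 2 Gy (SE, n = 3, adjusted p = 0.028), -0.68 ± 0.11 after 10 Gy (SE, n = 2, adjusted p = 0.0024) and -0.59 ± 0.09 after 5x2 Gy (SE, n = 3, adjusted p = 0.0013).

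Of 18 genes that cleave, export or degrade the SREBP machinery, 16 were tested: 5 fell and 3 rose after 10 Gy (median -0.33), 3 fell and 3 rose after 5x2 Gy (median 0.06) and 2 fell and 1 rose after 2 Gy (median -0.16). The shares called, 18.8% after 2 Gy and 37.5% after 5x2 Gy, were near those of all genes, and the 50% after 10 Gy was above it. Lpin1, a phosphatidate phosphatase that keeps SREBP out of action in the nucleus, was at 1.17 ± 0.18 after 2 Gy (SE, n = 3, adjusted p = 0.0036), 2.22 ± 0.22 after 10 Gy (SE, n = 2, adjusted p = 0.00038) and 1.69 ± 0.18 after 5x2 Gy (SE, n = 3, adjusted p = 0.00026). Fbxw7, the ubiquitin ligase subunit that marks nuclear SREBP for degradation, was at 0.85 ± 0.12 after 10 Gy (SE, n = 2, adjusted p = 0.0011) and 0.41 ± 0.10 after 5x2 Gy (SE, n = 3, adjusted p = 0.0088). Mbtps1, the first of the proteases that cleave SREBP in the Golgi, was at -0.57 ± 0.12 after 10 Gy (SE, n = 2, adjusted p = 0.0083).

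Of 15 LXR partners and targets 11 were tested, and 2 rose and 2 fell after 10 Gy (median 0.02), 4 rose and 1 fell after 5x2 Gy (median 0.18) and 1 rose and 0 fell after 2 Gy (median 0.19). With 11 genes the shares called, 9.09% after 2 Gy, 36.4% after 10 Gy and 45.5% after 5x2 Gy, lay within 1 gene of those of all genes. Pltp, a phospholipid transfer protein and LXR target, was at 0.68 ± 0.17 after 2 Gy (SE, n = 3, adjusted p = 0.027), 1.65 ± 0.21 after 10 Gy (SE, n = 2, adjusted p = 0.00082) and 1.01 ± 0.17 after 5x2 Gy (SE, n = 3, adjusted p = 0.0020). Rxra, the retinoid X receptor that pairs with LXRs, was at 0.48 ± 0.15 after 10 Gy (SE, n = 2, adjusted p = 0.036) and 0.58 ± 0.12 after 5x2 Gy (SE, n = 3, adjusted p = 0.0047). Scd1, which both this list and the fatty acid list hold, was at -1.59 ± 0.27 after 10 Gy (SE, n = 2, adjusted p = 0.0027). Of 29 genes of sterol transport and storage, 28 were tested: 6 fell and 3 rose after 10 Gy (median 0.07), 4 fell and 6 rose after 5x2 Gy (median 0.02) and 3 fell and 3 rose after 2 Gy (median 0.08). These shares, 21.4% after 2 Gy, 32.1% after 10 Gy and 35.7% after 5x2 Gy, were near those of all genes. In that list Osbpl10, an oxysterol-binding protein relative, was lower in each regimen, at -0.45 ± 0.10 (SE, n = 3, adjusted p = 0.016), -0.59 ± 0.12 (SE, n = 2, adjusted p = 0.0072) and -0.54 ± 0.10 (SE, n = 3, adjusted p = 0.0027) after 2 Gy, 10 Gy and 5x2 Gy.

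**Figure D5:**
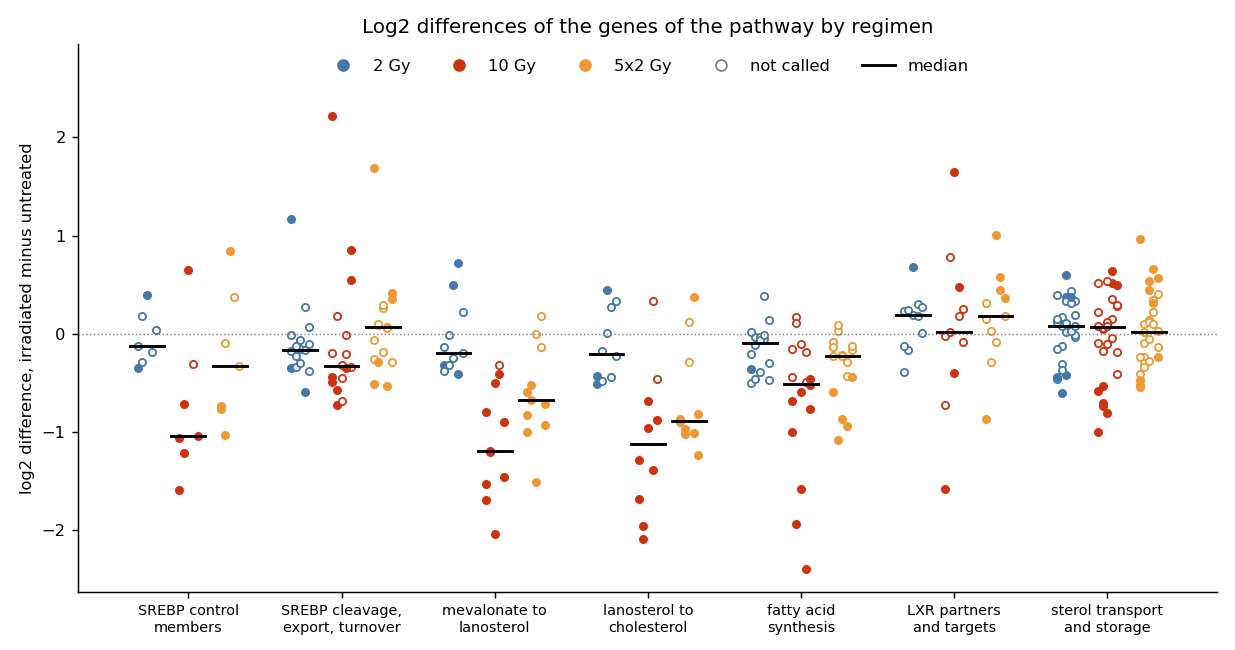
Log2 difference of irradiated minus untreated cells (y axis) for the 7 genes tested and for the genes of 6 lists (x axis) after 2 Gy, 10 Gy and 5x2 Gy; filled points were called and lines are medians. The lists of sterol synthesis have medians of -1.20 and -1.12 after 10 Gy, while the list of sterol transport and storage has a median of 0.07.

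The genes whose ratios on the 8 arrays were nearest to those of Srebf2, by root mean square difference on the log2 scale, were Mir100hg (0.25), Jak2 (0.27) and Tead1 (0.28), against a median of 0.95 over all genes. For Insig1 they were Pde3b (0.14), Dmtf1 (0.14) and Tdp1 (0.15), against a median of 0.77. The 8 arrays share their slides and their dye direction, and this likeness describes these arrays only. Abca1 was not tested and has no such neighbours.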

How the data were processed

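RNA of irradiated (Cy5) and untreated (Cy3) LLC1 cells was measured on 8 arrays, grouped by the regimen in the labels. Per the file headers, each scanner file holds an intensity per spot and channel, the mean pixel signal from ImaGene 9.0, with no background correction and no normalization. The values in the deposited series matrix are on the log2 scale, irradiated over untreated; its columns, with medians of -0.0045 to 0.0087, followed ratios computed from the intensities of the same arrays at slopes of 0.993 to 0.999, which settled scale and direction, while the authors' normalization is not given in the sources used here. The slides were read from image names in the headers. Spots carrying a flag stayed in, as no source used here explains the flags.

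For background, normexp with an offset of 50 was applied to the foreground intensities, which were then loess-normalized within arrays in limma 3.58.1 (R 4.3.3), with control spots at weight 0. Spots of a probe were averaged, and the brightest of the 21685 kept probes stood for its gene. Symbols were updated through RefSeq accessions: 27191 probes matched, which changed 1506 symbols, 7753 kept the array's symbol and 6230 had none. Of the genes tested, 4975 had more than 1 kept probe. The fit used 1 mean per regimen over all 8 arrays, eBayes without trend, and Benjamini-Hochberg adjustment. The script was tested on simulated data. Same-numbered arrays did not deviate together, and the numbers were not taken as pairs, though the labels do not say whether such arrays share a culture.

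The 8 genes, the 6 lists and the choice of tests were made with earlier results of these data known. Named genes were all 8 with every probe, up to 4 genes per list with the smallest p, of which a part is given and 1 is not reported here, and the 3 nearest to Srebf2 and to Insig1 in their ratios, without predicted and clone names. Promoter windows came from RefSeq. Alternatives changed the background correction, normalization, source of values, filter, probe choice, flags, slide, pairing, array weights and arrays in the fit, and left out each array in turn. The same alternatives for the test of any difference among regimens were added after the data were seen.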

Additional observations from a re-analysis of the deposited data

Results flagged for a closer look

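The ratios of 3 genes differed between the single doses of 10 Gy and 2 Gy by the test of that difference, which called 2.56% of all genes. Srebf2 was lower after 10 Gy by a log2 difference of -1.47 (limma, adjusted p = 0.022), Srebf1 by -1.08 (adjusted p = 0.041) and Stard4 by -0.93 (adjusted p = 0.042). On slide 1, 10 Gy replicate 1 differed from the mean of the 3 arrays of 2 Gy by -1.41, -1.35 and -1.26 in the same order. That is 1 array, taken from those that gave the calls, and no separate support. Its spread over all genes, 0.69 (SD), was the widest of the arrays. With any of the 2 Gy arrays left out no call of the 3 held, and 0 of all genes were called. With the mean over its probes in place of the brightest, Srebf2 differed by -0.72 (adjusted p = 0.039) and Stard4 by -0.70 (adjusted p = 0.058). Groups of 2 or 3 arrays are too small to search for single outlying arrays.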

How the results depend on the processing

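With 2 or 3 arrays per regimen, the arrays and the model of their spread limit what can be called, and dim signals limit Stard4 and Abca1. Of the 876 values of single genes under the alternatives, 66 lost the call and 63 gained it, with the same sign. Of the other values, 721 kept their side of the threshold and moved by no more than the spread between arrays or stayed called, 11 of them with the sign turned, and 26 moved further without a call, 7 of them with the sign turned. The sign turned only where the gene was called neither before nor after. Counts with a 10 Gy array left out are not listed here, as 1 array of that regimen is then left. After 2 Gy, 2 of the 7 genes were called. The count was 1 without background correction (2018 of all genes against 2270), 1 with the series matrix values (1975) and 1 with flagged spots left out (1883 of 11938). It was 0 with a random slide block (21 of all genes) and 5 with array weights (7281 of all genes). Without any of the 2 Gy arrays it was 0 (408 to 941 of all genes), and without a 5x2 Gy array 0 or 1 (1444 to 1683 of all genes). After 10 Gy it was 6, and 2 with array weights (222 of all genes) and 1 with the 10 Gy arrays alone (300 of all genes against 3785). It was 5 or 6 with a 2 Gy or 5x2 Gy array left out (2916 to 3248 of all genes). After 5x2 Gy it was 4, and 2 with a random slide block (817 of all genes against 5492). It stayed at 4 with a 2 Gy or 5x2 Gy array left out (3010 to 5087 of all genes). Between 10 Gy and 2 Gy it was 3 (343 of all genes), and 5 with a fixed slide block (4302), 5 with a random slide block (2905), 0 with array weights (2) and 0 with those arrays alone (0). Without a 2 Gy array it was 0 (0 of all genes), and without a 5x2 Gy array 0 or 1 (4 or 5 of all genes). Between 5x2 Gy and 2 Gy it was 0 (175 of all genes), and 2 with median centring (749), 1 with scaling between arrays (925), 2 with a fixed slide block (2371), 1 with a random slide block (236), 6 with array weights (6016) and 5 with those arrays alone (4012). It was 0 with a 2 Gy or 5x2 Gy array left out (0 of all genes). Between 5x2 Gy and 10 Gy it was 0, and also 0 with a 2 Gy or 5x2 Gy array left out (0 of all genes). For any difference among regimens it was 1 (199 of all genes), and 4 with median centring (523), 2 with the series matrix values (284), 0 with the mean over probes (160), 5 with a fixed slide block (3652), 5 with a random slide block (1958) and 7 with array weights (4865). It was 0 with a 2 Gy or 5x2 Gy array left out (0 of all genes).

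The cause of these moves was not tested. Fits on fewer arrays have fewer degrees of freedom, and what part that had in the moves was not tested either. A fixed slide term is estimated from the difference between the 10 Gy arrays only. Where 1 array of 10 Gy was left, it was assumed to vary like the other arrays. Replicate numbers were not taken as pairs, and same-numbered arrays had deviations from their regimen means that correlated at -0.243 to 0.114. These cannot exclude a shared culture, because deviations cancel within a regimen and those of the 10 Gy pair also carry the slide. With the number as a replicate block 0 of the 7 genes were called after 2 Gy (1418 of all genes), 5 after 10 Gy (2274) and 4 after 5x2 Gy (4740). That block called 0 of the 7 and 0 of all genes between 10 Gy and 2 Gy, between 5x2 Gy and 2 Gy, between 5x2 Gy and 10 Gy and for any difference among regimens.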
